A study of Mus musculus with 8 samples.

Results

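The DEAD and DEAH box RNA helicases were examined in mouse embryos of the outbred CF-1 stock, collected late in the 2-cell stage. Their genes were taken by symbol, as Ddx or Dhx followed by a number and at most 1 letter, leaving out Ddx4, Ddx6 and symbols ending in y. This gave 51 genes of 38406 symbols, 35 named Ddx and 16 named Dhx. The rule reads symbols alone. Embryos of both groups had been injected as early 1-cell embryos, and the labels give no age or genotype of the mice. The 4 control libraries came from embryos given a scrambled morpholino, and the other 4 from embryos given a morpholino directed, per the labels, at the Med13 transcription start site. A morpholino is an antisense oligomer that binds RNA and can block its translation or splicing. The labels call the group a MED13 knockdown, and the data used here hold no values of MED13 protein. Each library was a pool of 40 embryos, and each group held 4 independent collections. In such pools, fewer cells with an RNA and less of that RNA per cell cannot be told apart. The values were FPKM (fragments per transcript length and library size), summed here over the transcript models of a gene.

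These helicases are motors that use ATP to separate short RNA duplexes or to strip proteins from RNA. DEAD and DEAH are the one-letter amino acid spellings of motif II, the stretch that binds the metal ion and helps to cleave ATP. DEAD members mostly open short duplexes locally, while DEAH members move along a strand and are often switched on by G-patch partner proteins. They act at nearly every step in the life of an RNA, from splicing and export to ribosome assembly, translation and decay. The 2-cell stage is when the mouse embryo degrades RNA stored in the egg and makes RNA and ribosomes of its own.

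The motif that names the family could be read from the coding models in GENCODE M21 (GRCm38, the assembly also called mm10). It was searched as an aspartate codon, a glutamate codon, a codon for alanine, cysteine, valine or isoleucine, and a codon for aspartate or histidine. The search ran over both kinds of name, on the coding strand, from 50 to 170 codons after the glycine, lysine and threonine or serine codons of motif I. The first sequences below belong to the 4 genes that passed the test between the groups, and the last pair shows the DEAD spelling at its most abundant coding model and a variant with a cysteine codon. Capitals mark the 4 codons of the motif and lower case gives 4 codons on either side, except that the fragment of Ddx51 spans an exon junction and so covers more genome than it has bases.
Dhx15, chr5:52171484-52171519, minus strand: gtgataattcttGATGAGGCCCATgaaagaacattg
Dhx9, chr1:153468877-153468912, minus strand: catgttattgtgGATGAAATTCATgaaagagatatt
Dhx33, chr11:70999796-70999831, minus strand: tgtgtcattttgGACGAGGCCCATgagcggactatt
Ddx51, chr5:110655668-110655789, plus strand: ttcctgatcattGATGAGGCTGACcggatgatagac
Ddx3x, chrX:13289396-13289431, plus strand: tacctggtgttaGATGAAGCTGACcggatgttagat
Ddx39b, chr17:35247078-35247113, plus strand: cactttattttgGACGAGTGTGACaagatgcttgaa
Dhx15 and Dhx33 spell DEAH, Dhx9 has an isoleucine codon at position 3, and Ddx51 and Ddx3x spell DEAD. Among the Ddx genes, 28 ended the motif with an aspartate codon, with alanine at position 3 in 23, valine in 3 (Ddx21, Ddx28 and Ddx50) and cysteine in 2 (Ddx39 and Ddx39b). Ddx58 and Ddx60, named with the DEAD genes, ended it with a histidine codon. Of the Dhx genes, 15 ended it with a histidine codon. The search found no match in Ddx1, Ddx11, Ddx24, Ddx26b, Ddx52 or Dhx32, which says only that these codons were not in the window searched. GENCODE M21 gives Ddx26b the name Ints6l, and the gene is kept here by its symbol alone.

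Most of the family was present in the 2-cell embryo. Of the 51 genes, 46 had a mean of at least 1 FPKM over the 8 libraries and were tested. The 5 below that level were Ddx11, a DNA helicase, Ddx25, known from testis, Dhx34, a factor of nonsense-mediated decay, Dhx35, linked to the spliceosome, and Dhx58 (LGP2), a sensor of viral RNA. Their means ran from 0.0843 to 0.681 FPKM, and they are given no test. By coding models alone Ddx58 and Ddx59 also lay below 1 FPKM, which left 44 genes. By summed FPKM the most abundant members were Dhx33, Ddx3x, Ddx5 and Dhx9. Counting coding models alone, Ddx3x came first and Dhx33 stood in place 21, because most of the Dhx33 signal lay in a model that retains introns.

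After Med13 morpholino, Dhx15, Ddx51 and Dhx9 fell and the summed signal of Dhx33 rose. These 4 genes are 8.70% of the 46 tested, where 17.1% of all 11755 genes tested passed the same test (limma on log2(FPKM + 1), Benjamini-Hochberg adjusted p below 0.05). The share that fell was 6.52% for the helicases and 7.81% for all genes, and the share that rose was 2.17% and 9.29%. Calls were no more frequent in the family than in genes at large. At an unadjusted p below 0.05 in limma there were 14 of the 46 helicases, beside 32.4% of all genes. Of these 14, 12 were lower and 2 higher. The split by direction at that p was not tabulated over all genes. Over all transcript rows tested, 17.5% were lower and 13.9% higher. The median log2 fold change was -0.15 over the tested helicases and -0.06 over all genes tested, and 29 of 46 helicases lay below 0, beside 55.5% of all genes. Groups did not overlap in 8 genes (17.4%), 5 lower and 3 higher. Over all genes 21.6% did not overlap, with 11.1% lower and 10.4% higher.

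**Figure D1:**
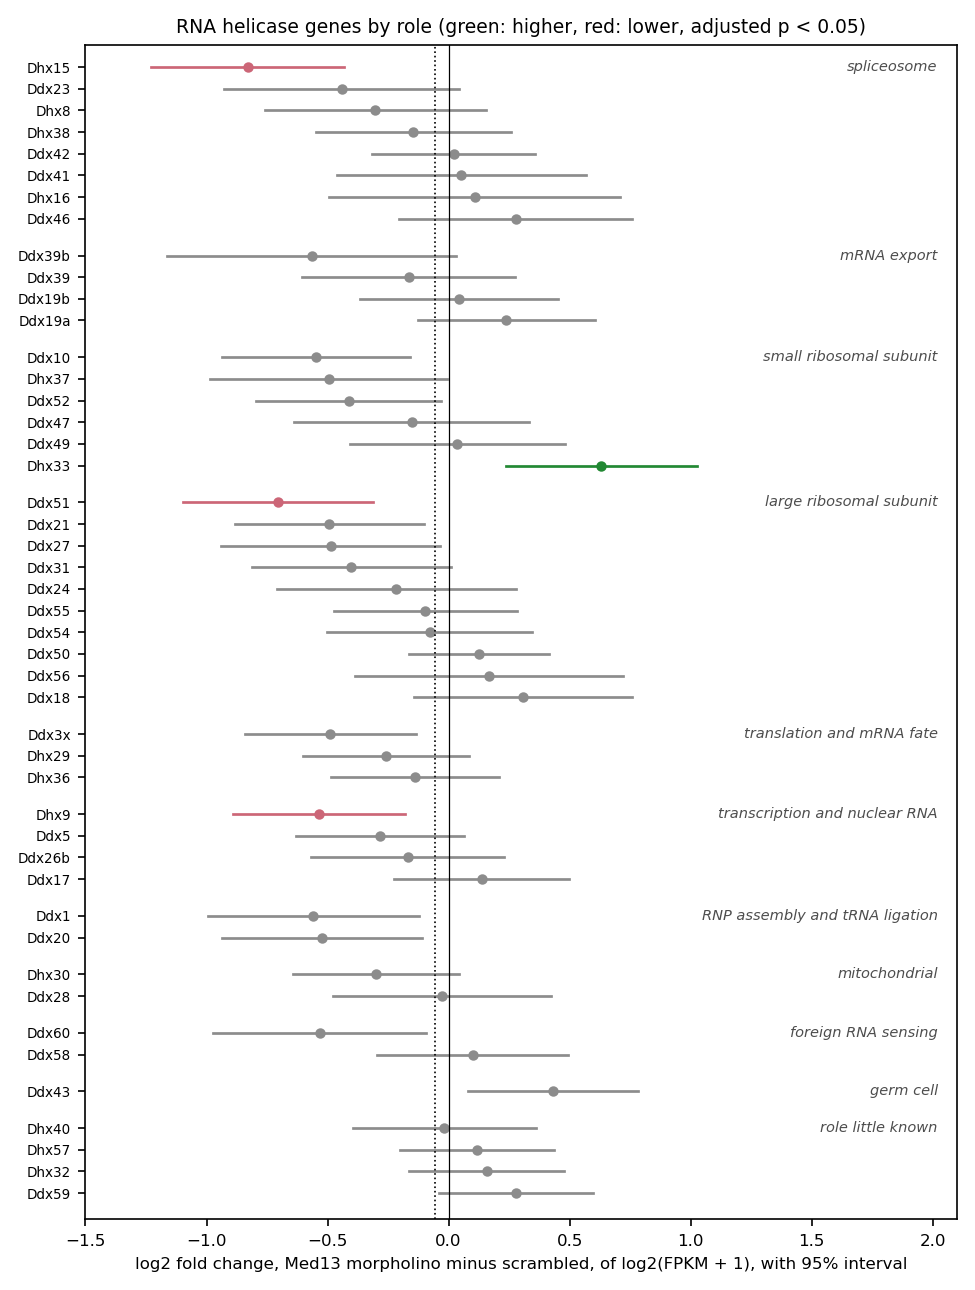
Log2 fold change (Med13 morpholino minus scrambled, on the log2(FPKM + 1) scale) of the 46 tested helicase genes with 95% intervals from limma, grouped by role; the dotted line is the median of all genes tested, -0.06. Dhx15, Ddx51 and Dhx9 are drawn in red and lower, Dhx33 in green and higher, and the other 42 in grey did not pass the test.

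The libraries differed in their overall helicase level. Their totals ran from 31378977 to 48050262 fragments. Of the 46 tested genes, 24 had their lowest value in Med13 morpholino replicate 1 and 11 in scrambled replicate 2, while 14 had their highest in Med13 morpholino replicate 4. The mean log2 deviation of the helicases was -0.33 in Med13 morpholino replicate 1, where that of all genes was -0.08, and 0.13 in Med13 morpholino replicate 4, where that of all genes was 0.08. Without Med13 morpholino replicate 1, the median log2 fold change of the helicases was -0.02 and Dhx15 alone passed the test, and without Med13 morpholino replicate 4 the median was -0.23 and 8 passed. The number passing was also 8 without scrambled replicate 2, 1 without scrambled replicate 3 or Med13 morpholino replicate 2, and 2 without scrambled replicate 4 or Med13 morpholino replicate 3. Med13 itself, the targeted gene, had 41.3 ± 4.31 FPKM in controls and 42.2 ± 2.14 after its morpholino (SD, n = 4 each; adjusted p in limma = 0.892), and a morpholino that blocks translation can leave its mRNA in place. Of 10 markers of the 2-cell embryo, 8 rose, and all 10 summed to 117 to 263 FPKM in controls and 326 to 690 FPKM after Med13 morpholino. Of 12 oocyte markers, 7 rose and 0 fell under the test. All 12 summed to 583 to 716 FPKM in controls and 856 to 1073 FPKM after Med13 morpholino. Most of the control sum was Dppa3, which did not pass (557 ± 58.2 and 536 ± 119 FPKM, SD, n = 4 each; adjusted p in limma = 0.802). The part of these 2 lists in the helicase results was not tested. Cumulus cell markers summed to 11.2 to 16.5 FPKM and 12.8 to 17.2 FPKM, with 1 of 12 genes above 1 FPKM, sperm markers reached at most 0.911 FPKM, and blood and immune markers at most 5.22 FPKM.

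**Figure D2:**
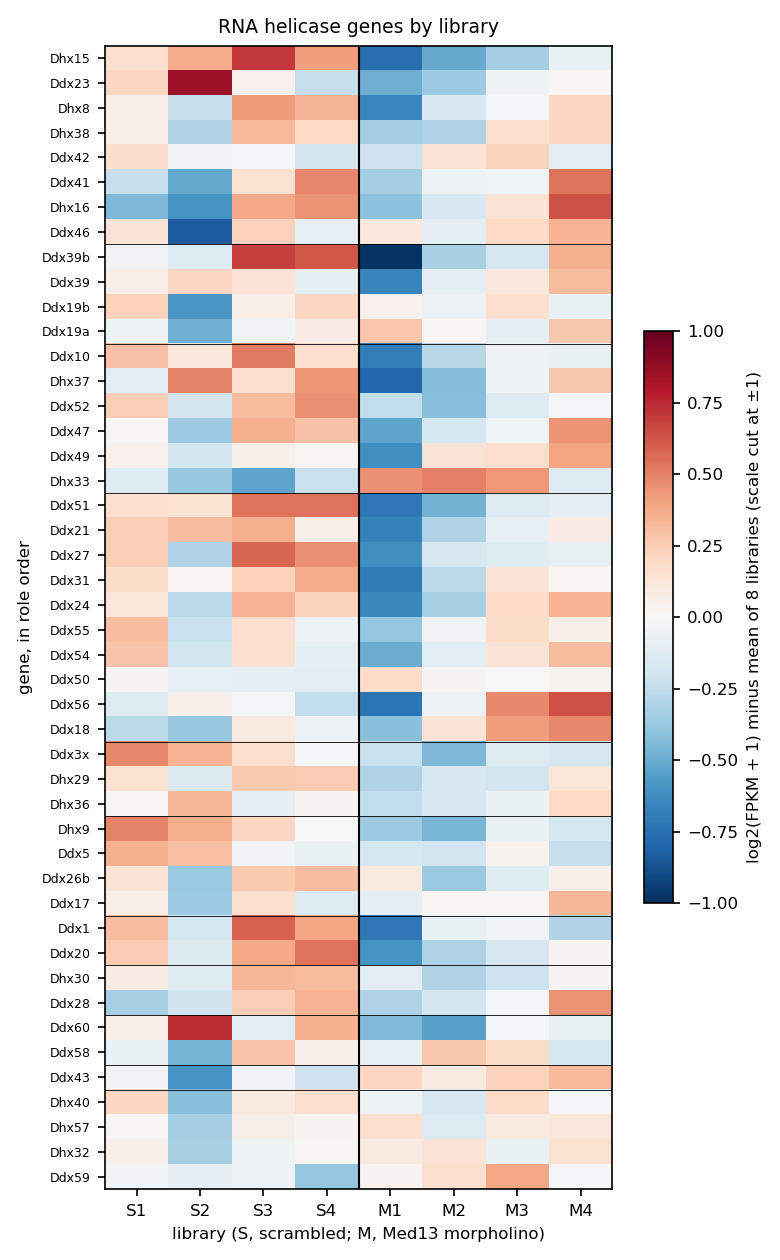
Log2(FPKM + 1) of each tested helicase gene minus its mean over the 8 libraries, by library (S1 to S4 scrambled, M1 to M4 Med13 morpholino), with genes in role order and the colour scale ending at 1 in either direction. The column M1 is mostly blue, since 24 of the 46 genes were lowest there.

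The retained intron model and the full coding model of Dhx33 changed in opposite directions. DHX33 is a nucleolar DEAH helicase known in mammals for work in ribosomal RNA synthesis and in the start of translation, so its place in the small ribosomal subunit list is only approximate. The gene lies on GRCm38 chr11:70984091-71004437, minus strand. Its summed FPKM was 131, 110.4, 99.5 and 123 in scrambled replicates 1 to 4 and 198, 205, 195 and 132 in Med13 morpholino replicates 1 to 4. Every Med13 library was above every control, and replicate 4 stood just above the highest control. The log2 fold change was 0.63 ± 0.18 SE (limma adjusted p = 0.0323, higher in 4 of 4 libraries). The call was lost without scrambled replicates 3 or 4 or Med13 morpholino replicates 1, 2 or 3 (adjusted p up to 0.109), and with no filter on low values (0.0975).

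The rise lay in a model annotated as a retained intron, while the full coding model fell. The retained intron model (ENSMUST00000178218) starts at the same base as the coding model (ENSMUST00000108527), chr11:71004437. It has 2885 bases in 2 exons, against 5184 bases in 12 exons, and its second exon runs through 2 introns of the coding model. Of its bases, 881 are shared with the coding model and 2004 (69.5%) are not. The 2 sequences below show where they part, at the end of the second exon of the coding model. Lower case is the exon they share, and capitals mark the intron read through in the first and the next exon in the second, which skips the intron at chr11:70999949-71001518.
Dhx33 retained intron model, chr11:71001489-71001548, minus strand: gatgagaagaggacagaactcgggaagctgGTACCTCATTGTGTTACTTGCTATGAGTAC
Dhx33 coding model, chr11:70999919-71001548, minus strand: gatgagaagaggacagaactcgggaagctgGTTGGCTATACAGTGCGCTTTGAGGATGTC
The coding model holds 697 codons, of which 141 are complete before the intron. Carried on into the intron, the frame meets a stop codon after 216 codons, 225 bases into the intron. Motif I begins at codon 93, ahead of the intron, and the DEAH codons printed above begin at codon 185 of the coding model, which in the retained intron model lie beyond that stop codon. The data used here hold no protein values.

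The retained intron model of Dhx33 had 111, 92.1, 75.3 and 95.3 FPKM in scrambled replicates 1 to 4 and 186, 191, 181 and 119.8 FPKM in Med13 morpholino replicates 1 to 4. The full coding model had 7.33, 5.80, 10.2 and 10.1 FPKM in the controls and 2.65, 3.03, 3.93 and 3.93 FPKM after Med13 morpholino. Neither pair of groups overlapped, the first with all Med13 libraries higher and the second with all of them lower. Their ratio was 15.1, 15.9, 7.36 and 9.41 in the controls and 70.02, 63.2, 46.1 and 30.5 after Med13 morpholino. The lowest ratio after Med13 morpholino was thus above the highest in controls.

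When each transcript row was fitted as a feature of its own, the retained intron model rose by 0.84 ± 0.20 on the log2 scale (SE; limma adjusted p = 0.0146 over 21052 rows), and the coding model fell by 1.08 ± 0.19 (adjusted p = 0.00312). Another model of the gene, annotated as subject to nonsense-mediated decay (ENSMUST00000049048), fell from 2.37 ± 0.789 to 0.806 ± 0.134 FPKM (SD, n = 4 each; adjusted p in limma = 0.00397). A short processed transcript of the gene (ENSMUST00000123860, 700 bases), whose FPKM over the 8 libraries averaged above that of the coding model, had 6.82 ± 0.770 and 6.35 ± 1.58 FPKM (SD, n = 4 each; log2 fold change -0.11, adjusted p in limma = 0.714). The fall of the coding model passed in 8 of 8 fits that left out a library, with an adjusted p of at most 0.0149. The rise of the retained intron model passed in 6 of 8, and missed without scrambled replicate 3 (0.0538) or Med13 morpholino replicate 2 (0.0590). These rows were singled out after their values had been seen. The sources used here do not say how the authors shared fragments between models with common exons.

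This opposition was uncommon among the genes that could show it. Of 17 helicase genes with both a coding and a retained intron row tested, 1 (Dhx33) had a coding row that fell and a retained intron row that rose. Over all genes 3 of 1454 did (0.206%), the others being Rpia and Ubl5. With the coding rows of Dhx33 summed, the gene went from 10.1 ± 2.78 to 4.24 ± 0.937 FPKM (SD, n = 4 each), a log2 fold change of -1.07 ± 0.20 SE (limma adjusted p = 0.00320), the reverse of the sum over all rows. Rows other than coding ones held 91.3% of the Dhx33 signal in controls and 97.7% after Med13 morpholino.

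**Figure D3:**
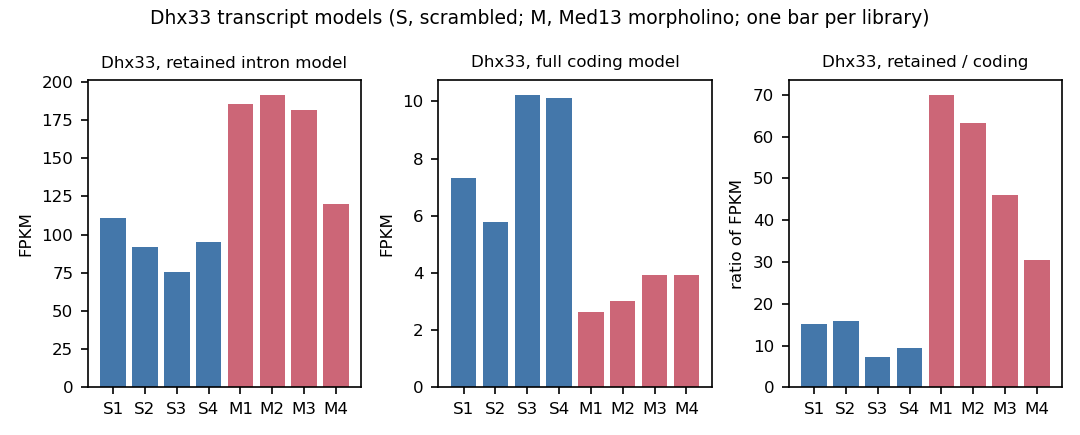
FPKM of the retained intron model and of the full coding model of Dhx33, and the ratio of the first to the second, with 1 bar per library (S1 to S4 scrambled, M1 to M4 Med13 morpholino). The retained intron model is higher in all 4 Med13 libraries, the coding model lower, and the ratio runs from 7.36 to 15.9 in controls and from 30.5 to 70.02 after Med13 morpholino.

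Among the spliceosomal helicases, Dhx15 fell and no other member passed the test. Each of these enzymes drives one remodelling step of the splicing cycle, and DHX15, the mammalian counterpart of yeast Prp43, takes the spent spliceosome and its lariat apart. Dhx15 (chr5:52150203-52190514, minus strand) had 26.7, 30.9, 39.2 and 31.9 FPKM in scrambled replicates 1 to 4 and 13.7, 16.4, 18.5 and 22.6 FPKM in Med13 morpholino replicates 1 to 4. The groups did not overlap, and the lowest control lay above the highest Med13 library. The log2 fold change was -0.83 ± 0.18 SE (95% interval -1.23 to -0.43; limma adjusted p = 0.0107). It was the 1 helicase that passed in all 8 fits leaving out a library, with adjusted p from 0.00499 to 0.0412, and it passed under each of the other 10 settings tried. All 3 coding rows of Dhx15 that were tested fell, the main one (ENSMUST00000031061, 3010 bases) from 15.9 ± 2.28 to 8.12 ± 2.05 FPKM (SD, n = 4 each; adjusted p in limma = 0.00745).

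Of the 8 spliceosomal members tested, 4 lay below 0 and 4 above, with a median log2 fold change of -0.06. Ddx23 (Prp28 in yeast), which helps to hand the start of the intron from U1 to U6, had 12.7 ± 4.77 FPKM in controls and 8.81 ± 1.64 FPKM after Med13 morpholino (SD, n = 4 each; adjusted p in limma = 0.194). Dhx8 (Prp22), which releases the finished mRNA, had 24.2 ± 4.94 and 19.5 ± 4.87 FPKM (adjusted p = 0.339). Ddx46 (Prp5), which acts at the branch site, had 13.9 ± 4.26 and 16.5 ± 2.23 FPKM (adjusted p = 0.412), and its control range was set by scrambled replicate 2 at 7.88 FPKM. The members Dhx38, Dhx16, Ddx41 and Ddx42 had log2 fold changes between -0.15 and 0.11. In Dhx16 the most abundant model was a short retained intron row, and coding rows gave 36.6% of its signal.

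None of the 4 export helicases passed the limma test, and 0 reached an unadjusted p below 0.05. DDX39B and its close relative DDX39 load export factors onto spliced mRNA, and DDX19A and DDX19B release those factors on the outer face of the nuclear pore. Ddx39, the most abundant, had 26.8, 29.8, 28.2 and 23.98 FPKM in scrambled replicates 1 to 4 and 15.8, 23.9, 27.7 and 32.0 FPKM in Med13 morpholino replicates 1 to 4. The Med13 libraries bracketed the controls. Ddx39b had 12.2 ± 3.83 and 8.11 ± 3.37 FPKM (SD, n = 4 each; adjusted p in limma = 0.177), and 1 Med13 library, at 12.4 FPKM, lay inside the control range of 8.56 to 15.9 FPKM. Ddx19a had 5.88 ± 1.09 and 7.08 ± 1.03 FPKM (adjusted p = 0.350), and Ddx19b 5.38 ± 1.48 and 5.44 ± 0.497 FPKM (adjusted p = 0.894). The coding sequences of Ddx19a and Ddx19b were 93.2% identical and those of Ddx39 and Ddx39b 81.2%, so reads may be divided between the members of a pair.

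Helicases of the large ribosomal subunit form the longest role list, with 10 members, and 1 of them, Ddx51, fell. DDX51 acts in the nucleolus on precursors of the large subunit. Ddx51 (chr5:110653451-110660496, plus strand) had 4.33, 4.28, 5.94 and 5.94 FPKM in scrambled replicates 1 to 4 and 1.90, 2.43, 3.33 and 3.47 FPKM in Med13 morpholino replicates 1 to 4. All Med13 libraries lay below all controls. The log2 fold change was -0.70 ± 0.18 SE (limma adjusted p = 0.0210), and its 1 coding row fell as well (2.31 ± 0.263 to 1.24 ± 0.244 FPKM, SD, n = 4 each; adjusted p = 0.0131). The call was lost without scrambled replicates 3 or 4 or Med13 morpholino replicates 1 or 2 (adjusted p up to 0.0703) and with no filter on low values (0.0697).

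Among the 10 large subunit members, 7 lay below 0 and 3 above, and the median log2 fold change was -0.16. Ddx21, a nucleolar helicase that couples rRNA synthesis to processing, had 33.7, 35.1, 36.6 and 29.6 FPKM in scrambled replicates 1 to 4 and 17.3, 22.6, 26.6 and 29.96 FPKM in Med13 morpholino replicates 1 to 4. Only replicate 4 reached into the control range (log2 fold change -0.49 ± 0.18 SE, limma adjusted p = 0.0803). Ddx27 (Drs1 in yeast) had 20.2 ± 5.26 and 13.9 ± 2.37 FPKM (SD, n = 4 each; adjusted p = 0.128), but 1 of its coding rows, ENSMUST00000150571, fell from 5.98 ± 1.35 to 2.75 ± 0.416 FPKM (adjusted p = 0.00481 over transcript rows). Ddx31 (Dbp7) had 6.08 ± 0.717 and 4.47 ± 1.31 FPKM (adjusted p = 0.164). The other 6, Ddx18, Ddx24, Ddx50, Ddx54, Ddx55 and Ddx56, had log2 fold changes between -0.22 and 0.31 and adjusted p of at least 0.326.

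In the small subunit list the summed signal of Dhx33 rose. At an unadjusted p below 0.05 in limma, 3 other members had lower means after Med13 morpholino, and none of the 3 passed after adjustment. Ddx10 (Dbp4 in yeast) came nearest, with 31.8, 27.95, 37.3 and 29.02 FPKM in scrambled replicates 1 to 4 and 15.5, 21.1, 24.6 and 24.5 FPKM in Med13 morpholino replicates 1 to 4. Its groups did not overlap (log2 fold change -0.55 ± 0.18 SE; adjusted p in limma = 0.0538). Ddx10 passed under 5 of the 9 other settings that used no replicate block, and also in the fit blocked on neighbouring library numbers. It passed in 2 of 8 fits that left out a library. Dhx37 (Dhr1), which frees U3 RNA from the small subunit precursor, had 3.90 ± 0.915 and 2.56 ± 1.11 FPKM (SD, n = 4 each; adjusted p = 0.149). Ddx52 (Rok1) had 29.8 ± 5.59 and 21.9 ± 2.69 FPKM (adjusted p = 0.124). Ddx47 and Ddx49 had log2 fold changes of -0.15 and 0.04, and Ddx49 shares 29.9% of its exonic bases with Homer3 on the other strand. In the other lists Ddx39, Ddx41 and Ddx54 share 17.36%, 17.38% and 15.45% of theirs with genes on the other strand.

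**Figure D4:**
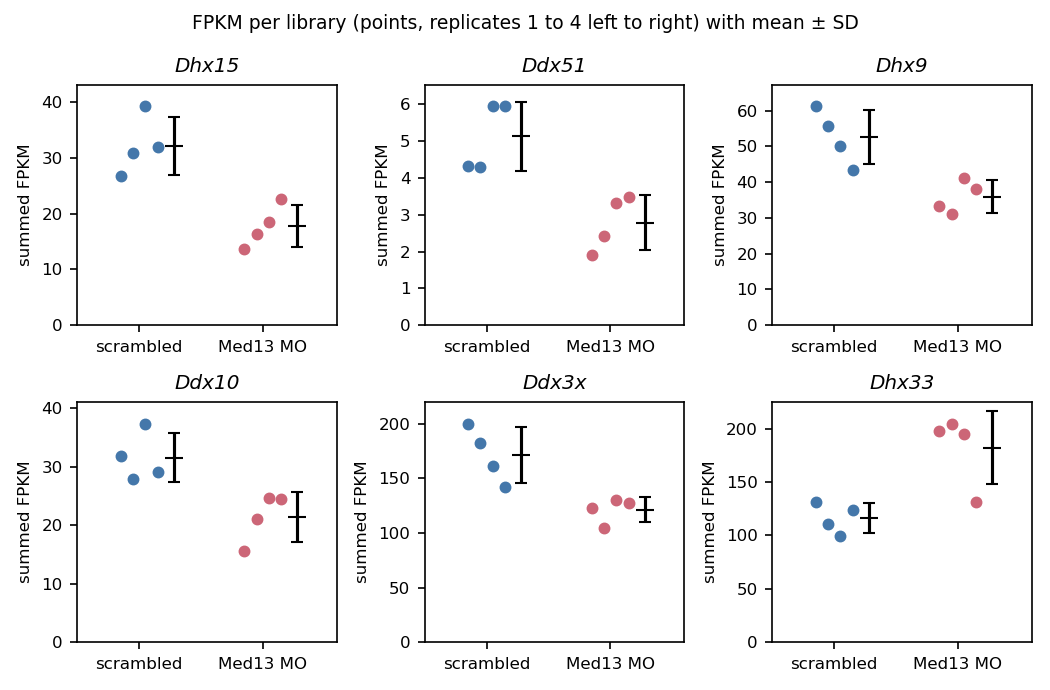
Summed FPKM per library (points) of the 4 helicase genes that passed the test and of Ddx10 and Ddx3x, which came nearest to it, with the mean and SD of each group (n = 4) beside the points. In all 6 panels the groups do not overlap: Dhx33 is higher and the other 5 are lower after Med13 morpholino.

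Ddx3x, a DEAD helicase that helps mRNAs with structured leaders into translation, was the most abundant helicase by coding rows. It had 199.97, 183, 161 and 142 FPKM in scrambled replicates 1 to 4 and 123, 105, 130.3 and 128 FPKM in Med13 morpholino replicates 1 to 4. All Med13 libraries were below all controls, yet the gene narrowly missed the threshold (log2 fold change -0.49 ± 0.16 SE, limma adjusted p = 0.0578). Its 1 coding row alone went from 93.8 ± 20.5 to 62.2 ± 5.75 FPKM (SD, n = 4 each; adjusted p = 0.0477 among coding rows summed by gene). That row did not pass when each transcript row was fitted as a feature of its own. Summed over all rows, Ddx3x passed in 0 of 8 fits that left out a library (limma adjusted p from 0.0546 to 0.181). It did pass with sample weights and with no mean-variance trend. Dhx29, which helps the small subunit to scan, had 4.98 ± 0.750 and 3.99 ± 0.642 FPKM (adjusted p = 0.275). Dhx36, which unwinds G-quadruplexes, had 6.90 ± 1.06 and 6.18 ± 0.998 FPKM (adjusted p = 0.586).

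Dhx9 fell as well. DHX9, also called RNA helicase A, works in the nucleus with RNA polymerase II and on double-stranded RNA, including that of inverted repeats. Dhx9 (chr1:153455758-153487660, minus strand) had 61.2, 55.8, 50.1 and 43.4 FPKM in scrambled replicates 1 to 4 and 33.3, 31.2, 41.2 and 38.1 FPKM in Med13 morpholino replicates 1 to 4. The groups did not overlap, but the lowest control and the highest Med13 library lay close together. The log2 fold change was -0.53 ± 0.16 SE (limma adjusted p = 0.0421). The call held in 2 of 8 fits that left out a library, those without scrambled replicate 4 or Med13 morpholino replicate 4, with adjusted p up to 0.138 in the rest. It was also lost with no filter (0.0970), median-ratio scaling (0.0658), the most abundant transcript only (0.0867) and coding rows only (0.0686).

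Ddx5 (p68), a coactivator of transcription that also acts in splicing and microRNA processing, was the most abundant of the transcription group, with 95.01, 91.2, 72.6 and 70.3 FPKM in scrambled replicates 1 to 4 and 65.2, 64.5, 75.6 and 62.9 FPKM in Med13 morpholino replicates 1 to 4. The groups overlapped through Med13 morpholino replicate 3 (log2 fold change -0.28 ± 0.16 SE, limma adjusted p = 0.244). Its relative Ddx17 (p72) had 8.20 ± 1.45 and 9.09 ± 1.33 FPKM (SD, n = 4 each; adjusted p = 0.606). Ddx26b, a relative of an Integrator subunit, had 4.47 ± 1.08 and 3.82 ± 0.688 FPKM (adjusted p = 0.558).

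In the RNP assembly and mitochondrial lists 0 of 4 members passed limma's test, and Ddx20 and Ddx1 reached an unadjusted p below 0.05. Ddx20 (Gemin3), part of the SMN complex that builds spliceosomal RNPs, had 31.9, 23.9, 35.1 and 39.1 FPKM in scrambled replicates 1 to 4 and 17.2, 21.2, 23.6 and 27.1 FPKM in Med13 morpholino replicates 1 to 4. The groups overlapped only through scrambled replicate 2 and Med13 morpholino replicate 4 (log2 fold change -0.52 ± 0.19 SE, limma adjusted p = 0.0781). Ddx1, part of the tRNA ligase complex, had 3.63 ± 0.965 and 2.14 ± 0.633 FPKM (SD, n = 4 each; adjusted p = 0.0750). Both passed with quantile normalization (adjusted p = 0.0470 for Ddx20 and 0.0443 for Ddx1), with sample weights (0.00334 and 0.0120) and without scrambled replicate 2 (0.0256 and 0.0223), and Ddx20 also with median-ratio scaling (0.0335) and without Med13 morpholino replicate 4 (0.0480). Of the mitochondrial pair, which act in mitochondrial ribosome assembly, Dhx30 had 6.77, 5.72, 8.22 and 8.15 FPKM in scrambled replicates 1 to 4 and 5.79, 4.95, 5.35 and 6.47 FPKM in Med13 morpholino replicates 1 to 4. These groups overlapped through scrambled replicate 2 (adjusted p = 0.210). Ddx28 had 3.99 ± 1.13 and 3.91 ± 1.20 FPKM (adjusted p = 0.942).

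Of the sensors of foreign RNA, 2 were tested and 0 passed limma's test, with Ddx60 at an unadjusted p below 0.05. Ddx60 had 3.83, 6.70, 3.29 and 4.90 FPKM in scrambled replicates 1 to 4 and 2.39, 2.16, 3.57 and 3.38 FPKM in Med13 morpholino replicates 1 to 4. The highest value was scrambled replicate 2, and the groups overlapped (log2 fold change -0.53 ± 0.20 SE, limma adjusted p = 0.0899). Ddx58 (RIG-I) had 2.42 ± 0.714 and 2.63 ± 0.532 FPKM (SD, n = 4 each; adjusted p = 0.738), with 74.4% of its signal in a noncoding model of 435 bases. Rows other than coding ones held 94.7% of the Ddx58 signal in controls and 92.1% after Med13 morpholino. Its coding rows summed to 0.127 ± 0.078 and 0.209 ± 0.033 FPKM, below the level used for testing. Ddx43, known from germ cells and tumours, had 4.00, 2.37, 3.98 and 3.42 FPKM in scrambled replicates 1 to 4 and 4.92, 4.42, 4.99 and 5.38 FPKM in Med13 morpholino replicates 1 to 4. All Med13 libraries were above all controls, and the gene missed the threshold (log2 fold change 0.43 ± 0.16 SE, adjusted p = 0.0860), passing under median-ratio scaling and quantile normalization. Ddx43 shares 15.9% of its exonic bases with 4930542C12Rik on the other strand, and whether the libraries keep the strand is not known.

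The last members have roles that are little known. Dhx40 had 22.7, 14.4, 20.9 and 22.1 FPKM in scrambled replicates 1 to 4 and 18.9, 17.4, 22.5 and 19.4 FPKM in Med13 morpholino replicates 1 to 4. The Med13 values lay inside the control range (log2 fold change -0.02 ± 0.17 SE, limma adjusted p = 0.953). Ddx59 had 1.03 ± 0.226 and 1.47 ± 0.322 FPKM (SD, n = 4 each; adjusted p = 0.212), with groups that did not overlap. Dhx32 had 5.04 ± 0.687 and 5.71 ± 0.486 FPKM (adjusted p = 0.493), and Dhx57 1.63 ± 0.321 and 1.84 ± 0.253 FPKM (adjusted p = 0.618).

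At the level of transcript models, the share of helicase coding rows that fell under the test was near that of all coding rows. Of 245 rows, 117 had a mean of at least 1 FPKM, and 10 of them in 5 genes passed, 9 lower and 1 higher (8.55%, beside 15.7% of all rows tested, 7.57% lower and 8.17% higher). Of 66 coding rows tested, 6 fell (9.09%, beside 7.81% of all coding rows) and 0 rose under limma. Over all genes, 988 of the 12647 coding rows fell and 1058 rose under the same test. At an unadjusted p below 0.05, 19 helicase coding rows were lower (28.8%) and 1 higher. Of all 12647 coding rows, 16.8% were lower and 14.5% higher at that p. The median of the helicase rows was -0.20 on the log2 scale, where all coding rows had -0.06. The 6 rows belonged to Dhx15, Ddx51, Ddx27 and Dhx33. The 29 retained intron rows had a median of -0.15, as in all genes (-0.15), with 1 row higher, that of Dhx33, and 1 lower, in Dhx9. Summed over coding rows, the helicases held 534 to 586 FPKM in the controls and 373 to 517 FPKM after Med13 morpholino, lowest in replicate 1. Over all rows they held 869 to 981 FPKM and 750 to 910 FPKM. As a share of all FPKM this was 0.402% to 0.469% in the controls and 0.372% to 0.410% after Med13 morpholino, and these ranges overlapped. Sums give most weight to the abundant members.

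Close relatives within the family were compared as log2 ratios of FPKM + 1 within each library. A scaling of the whole library does not affect these ratios much, and the addition makes them smaller in size than ratios of FPKM. The log2 ratio of Ddx21 to Ddx50, a pair of nucleolar helicases with 70.2% identical coding sequence, was 2.94, 3.11, 3.18 and 2.89 in scrambled replicates 1 to 4 and 1.86, 2.39, 2.65 and 2.77 in Med13 morpholino replicates 1 to 4. Each Med13 value was below each control, a difference of -0.62 (two-sided exact permutation p = 0.0286, the smallest that 70 assignments allow, and 0.114 after Benjamini-Hochberg adjustment over 4 pairs). The levels of Ddx50 were 3.25 ± 0.181 and 3.63 ± 0.291 FPKM (SD, n = 4 each). The other 3 ratios differed by -0.42 (Ddx5 to Ddx17, exact permutation p = 0.114), 0.40 (Ddx39 to Ddx39b, p = 0.257) and 0.19 (Ddx19a to Ddx19b, p = 0.286).

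Other RNA helicases and genes that work with the helicases, together called partner genes here, changed about as often as genes at large. Of 76 partner genes tested, 7 rose and 7 fell (18.4%, beside 17.1% of all genes), with a median log2 fold change of -0.13. None of the 6 tested DEAD and DEAH helicases that go by other names passed, among them the translation factors Eif4a1 (90.7 ± 16.6 and 73.8 ± 13.4 FPKM, SD, n = 4 each; adjusted p in limma = 0.299) and Eif4a2 (66.4 ± 12.2 and 85.8 ± 11.2 FPKM; adjusted p = 0.159). Of these 6, 2 reached an unadjusted p below 0.05. Among activators of DEAH helicases, the G-patch proteins Gpkow, a partner of DHX16, and Gpatch2, a partner of DHX15, fell by 1.11 and 0.67 on the log2 scale (limma adjusted p = 0.00138 and 0.00688). Nkrf, another G-patch partner of DHX15, rose by 0.92 (limma adjusted p = 0.0220).

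Partners of the export and RNP helicases also moved in both directions. Nup214, the pore protein that docks DDX19, rose from 62.9 ± 15.3 to 119.9 ± 26.9 FPKM (SD, n = 4 each; adjusted p in limma = 0.0154), and Magohb, of the exon junction complex around EIF4A3, fell from 4.38 ± 0.776 to 1.76 ± 0.994 FPKM (adjusted p = 0.00933). Of 12 genes listed with the TREX complex around DDX39B, which include the export receptor genes Nxf1 and Nxt1, 10 did not pass. Thoc7 fell by 0.81 and Thoc2 fell by 0.52 on the log2 scale (limma adjusted p = 0.0360 and 0.0436). Of 7 tested genes of the SMN complex around DDX20, Gemin5 fell by 1.11 and Strap fell by 0.65, while Gemin8 rose by 0.82 (limma adjusted p = 0.00550, 0.0201 and 0.00634). In other lists, the spliceosomal helicase Aqr rose by 0.68 over all rows (limma adjusted p = 0.0164) but had a log2 fold change of -0.13 over coding rows only, and Znfx1 rose by 0.61 (adjusted p = 0.0241). The tRNA ligase subunit 2700060E02Rik and the kinase Tbk1 rose by 0.69 and 0.53 (limma adjusted p = 0.0208 and 0.0432). Of the 14 partner calls, 6 held in all 8 fits that left out a library, those of Gpkow, Gpatch2, Magohb, Nup214, Gemin5 and Gemin8.

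Promoters were read for 45 of the 51 genes from the RefSeq table (GRCm38.p6), from 250 bases before to 50 bases after the start. The median helicase promoter held 24 CG steps, against 7 over 27025 promoters. The GC box GGGCGG stood on either strand in 64.4% of helicase promoters and 35.9% of all, and in those of Dhx15, Dhx9, Ddx51 and Dhx33 alike. CCAAT was found in 48.9% and 37.9%, TATAAA in 4.44% and 14.2%, TGACGTCA in 11.1% and 1.88%, and CACGTG in 8.89% and 7.24%. The 27025 promoters were taken whatever the expression of their genes, while most of the helicases were expressed here. Promoters of expressed genes alone were not compared, so these shares do not show traits particular to helicases. Motifs were allowed to overlap, and a match describes the letters and not a bound site.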

How the data were processed

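RNA was measured in 8 pools of 40 mouse embryos. Per the labels' protocols, RNA was amplified by the Ovation method before 400 ng of cDNA entered TruSeq libraries. The authors deposited 1 table of FPKM values for 97496 transcripts, and the submitters' processing notes name BWA and the mm10 build. Versions, the counting tool and strandedness are not given in the sources used. In 3758 rows whose symbol holds a hyphen the deposited columns are shifted, and these rows, none of a helicase, were left out. Of the 245 helicase rows, 244 matched GENCODE M21.

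Rows were summed by symbol, and the 11755 genes whose FPKM averaged 1 or more were tested with limma 3.58.1 (R 4.3.3) on log2(FPKM + 1), two-sided, with a mean-variance trend, no covariate, and Benjamini-Hochberg adjustment over all of them. Fold changes are on that scale, which understates those of low genes. Scripts were tested on simulated data. Library totals were read back from steps of 0.5 fragments in the FPKM values, and without molecular identifiers copies made in amplification cannot be told from separate molecules.

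The members, role lists and partner lists were chosen with earlier results of these data known. Named by rule were each member past the threshold, the most abundant of each role list, up to 4 of each list by p, and partner genes past the threshold. The fit of single transcript rows, the ratios of relatives and a fit blocked on neighbouring library numbers were added after the values were seen. The alternatives covered the pseudocount, the filter, scaling, weights, trend, transcript choice and leaving out each library.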

Additional observations from a re-analysis of the deposited data

Results flagged for a closer look

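Of 92 groups of 4 libraries (46 genes in 2 groups), 4 held a library far from the other 3, a share that chance alone gives in about 1 group in 20. Dhx33 was lowest in Med13 morpholino replicate 4 at 131.7 FPKM, where the other 3 lay between 195 and 205 FPKM, and the ratio of its retained intron model to its coding model was also lowest there among the Med13 libraries. Ddx49 and Dhx57 were both lowest among controls in scrambled replicate 2, at 12.38 and 1.149 FPKM. Ddx50 was highest among controls in scrambled replicate 1, at 3.513 FPKM.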

How the results depend on the processing

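Dhx15 passed the test under every alternative run. The number of helicases passing, 4 as reported, was 1 with no filter on low values, 8 with quantile normalization and 18 with sample weights, and 1 to 8 when a library was left out. Over all genes the 2010 calls became 1012 with no filter, 1137 at a mean FPKM of at least 5, 4336 with sample weights, and 975 to 2406 without 1 library. The 14 partner calls became 6, 8 and 37 under the same 3 settings, and 7 to 19 without 1 library. The higher share of all calls, 54.3% as reported, was 39.5% with sample weights. Direction reversed for Dhx33 with coding transcripts only (-1.07) and for Aqr likewise (-0.13). It also reversed for members with values near 0: Dhx57 with sample weights (-0.031), Ddx19b with sample weights (-0.079) and the most abundant transcript (-0.016), Ddx28 with median-ratio scaling (0.010), and Dhx40 with median-ratio scaling (0.027), quantile normalization (0.017), the most abundant transcript (0.017) and coding transcripts only (0.013). Without 1 library, log2 fold changes ran from -0.30 to 0.029 for Ddx39, -0.039 to 0.21 for Ddx58, -0.14 to 0.13 for Ddx19b, -0.18 to 0.085 for Ddx28 and -0.16 to 0.047 for Dhx40. Causes of these changes were not tested. Alternatives were tabulated for 34 members and not for the 12 given by range. The running numbers in the library titles alternate between the groups, and the labels do not say that neighbours share a collection. With neighbouring numbers as a replicate block, chosen after seeing the data, 8 helicases passed (those reported plus Ddx1, Ddx10, Ddx20 and Ddx39b), with 2620 calls over all genes and 15 among partners. Deviations of neighbours from their group means correlated at 0.378, 0.141, 0.0085 and 0.186 over genes. In 2 of 4 pairs each library correlated best with its neighbour. These values do not settle whether neighbours share a collection. The numbers were not taken as pairs in the main fit because the labels do not state a pairing. Genes at few FPKM rest on few fragments, 33 to 112 in Ddx59.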
